A study of Mus musculus with 10 samples.

Results

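The receptors for glutamate and GABA, the main excitatory and inhibitory transmitters of the brain, were examined in mouse olfactory epithelium, the sensory lining of the nose. Genes were taken by symbol from the authors' deposited table: the AMPA, kainate, delta and NMDA receptor subunits (symbols Gria, Grik, Grid and Grin with a digit), the metabotropic glutamate receptors (Grm), and the GABA-A (Gabr) and GABA-B (Gabbr) receptor subunits. The rule found 49 of 24421 genes. Of these, 47 code for subunits in 13 roles, and 2 do not: Grin1os, an antisense transcript within Grin1, and a gene for a scaffold protein of synapses. The samples were 6 biological replicates labelled Apoe4 and 4 labelled Apoe3, after human alleles of Apoe, which codes for the lipid-carrying apolipoprotein E. All 10 came from untreated mice on the C57BL/6 background, 6 months old. The labels give no sex, and they do not say how the human alleles were introduced. Poly(A)-selected RNA was sequenced in 1 library per sample. Depth, estimated from size factors, was about 15500000 to 20100000 assigned reads in the Apoe4 libraries and 14900000 to 19900000 in the Apoe3 libraries.

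Ionotropic glutamate receptors are cation channels, and NMDA receptors need the Grin1 subunit. Metabotropic glutamate receptors and GABA-B receptors act through G proteins. GABA-A receptors are chloride channels built most often from alpha, beta and gamma subunits. Olfactory sensory neurons release glutamate in the olfactory bulb, where GABA from bulb interneurons acts on GABA-B receptors of their terminals, while the cell bodies lie in the nasal epithelium. Whole tissue was sequenced, so fewer cells of a type and less RNA per cell cannot be told apart. All 14 listed markers of mature olfactory neurons, which define the tissue, were measured, led by the olfactory marker protein gene Omp at a mean of 113676 normalized counts in the authors' deposited table.

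The file gives a mean over libraries and no value per library. Means are printed to enough digits, however, that the whole reads behind a low mean could be solved exactly. This gave the reads in every library for 33 of the 49 genes, 14 from the mean alone and 19 from the mean with the fold change. Libraries are named by a letter in order of falling depth within each genotype (Apoe4 A to F, Apoe3 A to D), since their replicate numbers are not known.

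Promoters are shown for 6 of the genes. Gabbr1, Gabrp, Gabbr2 and Grik5 had the highest levels. Grin1 and Grm2 had lower levels, though not the lowest, and most or many of their reads in 1 library. Each of the 6 promoters runs from 250 bases before to 50 after the start given in a promoter table from RefSeq (GRCm38.p6), 5′ to 3′ on the gene's strand. For Grik5 and Gabrp that start lies inside the annotated outer bounds of the gene. Capitals mark the letters GGGCGG (the GC box), TATAAA (the TATA box), CCCNNGGG (the core bound by Ebf factors of olfactory neurons) and CAGCACC (part of the RE1 element bound by the repressor REST), sought on both strands.
Gabbr1 (chr17:37045716-37046015, plus strand): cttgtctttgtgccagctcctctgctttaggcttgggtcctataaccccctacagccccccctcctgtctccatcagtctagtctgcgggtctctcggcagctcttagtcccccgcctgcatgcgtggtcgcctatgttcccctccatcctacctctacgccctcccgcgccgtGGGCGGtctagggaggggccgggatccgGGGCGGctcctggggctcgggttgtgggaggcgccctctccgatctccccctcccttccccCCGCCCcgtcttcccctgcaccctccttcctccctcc
Gabrp (chr11:33578908-33579207, minus strand): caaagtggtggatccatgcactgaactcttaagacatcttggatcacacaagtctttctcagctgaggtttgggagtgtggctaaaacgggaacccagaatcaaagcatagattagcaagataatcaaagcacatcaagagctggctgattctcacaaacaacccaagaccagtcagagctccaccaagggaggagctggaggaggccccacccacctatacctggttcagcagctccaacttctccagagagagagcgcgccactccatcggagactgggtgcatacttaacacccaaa
Gabbr2 (chr4:46991665-46991964, minus strand): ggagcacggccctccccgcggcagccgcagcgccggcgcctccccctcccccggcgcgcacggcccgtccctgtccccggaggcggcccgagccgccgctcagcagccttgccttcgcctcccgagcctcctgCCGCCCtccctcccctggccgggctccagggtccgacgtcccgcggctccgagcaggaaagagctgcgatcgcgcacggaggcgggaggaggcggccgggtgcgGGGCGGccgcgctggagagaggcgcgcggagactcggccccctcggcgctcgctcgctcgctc
Grik5 (chr7:25072320-25072619, minus strand): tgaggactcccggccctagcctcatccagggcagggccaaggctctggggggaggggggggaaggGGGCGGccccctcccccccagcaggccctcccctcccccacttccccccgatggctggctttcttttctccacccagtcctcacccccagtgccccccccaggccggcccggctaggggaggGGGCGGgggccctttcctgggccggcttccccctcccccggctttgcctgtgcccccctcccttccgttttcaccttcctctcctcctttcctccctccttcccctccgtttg
Grin1 (chr2:25319138-25319437, minus strand): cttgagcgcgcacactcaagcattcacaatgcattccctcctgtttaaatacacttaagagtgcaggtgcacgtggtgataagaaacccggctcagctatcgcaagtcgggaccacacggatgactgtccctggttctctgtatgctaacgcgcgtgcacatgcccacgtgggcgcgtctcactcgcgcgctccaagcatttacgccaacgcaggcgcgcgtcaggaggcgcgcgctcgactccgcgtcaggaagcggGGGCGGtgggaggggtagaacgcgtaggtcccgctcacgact
Grm2 (chr9:106656060-106656359, minus strand): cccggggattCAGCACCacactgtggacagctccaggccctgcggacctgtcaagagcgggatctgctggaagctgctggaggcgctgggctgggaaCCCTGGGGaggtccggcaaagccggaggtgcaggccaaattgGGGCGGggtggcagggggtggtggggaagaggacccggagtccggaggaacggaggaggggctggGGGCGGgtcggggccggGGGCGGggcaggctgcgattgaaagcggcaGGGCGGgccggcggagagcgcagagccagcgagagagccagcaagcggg
The promoter of Gabrp held none of the 4 motifs and 4 CpG dinucleotides, and that of Gabbr2 held 46 CpG and 2 GC boxes. A median promoter of all 32851 in the RefSeq table held 7 CpG. The Grm2 window held 4 GC boxes, 1 CCCNNGGG that overlapped none of the other motifs, and 1 CAGCACC. Over the 42 promoters of 34 members, GGGCGG stood in 50%, against 35.7% of all promoters. CCCNNGGG stood in 14.3%, against 13.7%, TATAAA in 9.52%, against 13.6%, and CAGCACC in 4.76%, against 7.14%. Several promoters belong to 1 gene, and a match describes the letters only.

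Levels differed by over 4 orders of magnitude between subunits (the plot of levels by gene), though the lowest, Gabrr3, rests on 1 read. Levels are given as the authors' mean normalized count over all 10 libraries, divided by the length of the longest GENCODE transcript in kilobases. Such a mean has no spread, and in some members it leans on 1 library. Apoe4 A held 45.2% of the reads of Grin1 and 68.3% of those of Grm2, as described below. Highest was Gabbr1, the GABA-binding subunit of the GABA-B receptor, at 584 per kb, and its partner Gabbr2, which couples to the G protein, reached 252 per kb. Gabrp, the pi subunit of GABA-A receptors, known from epithelia rather than brain, stood at 549 per kb. The kainate subunit Grik5, which needs a second kainate subunit to form a channel, followed at 181 per kb. No other member passed 40 per kb.

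**Figure D1:**
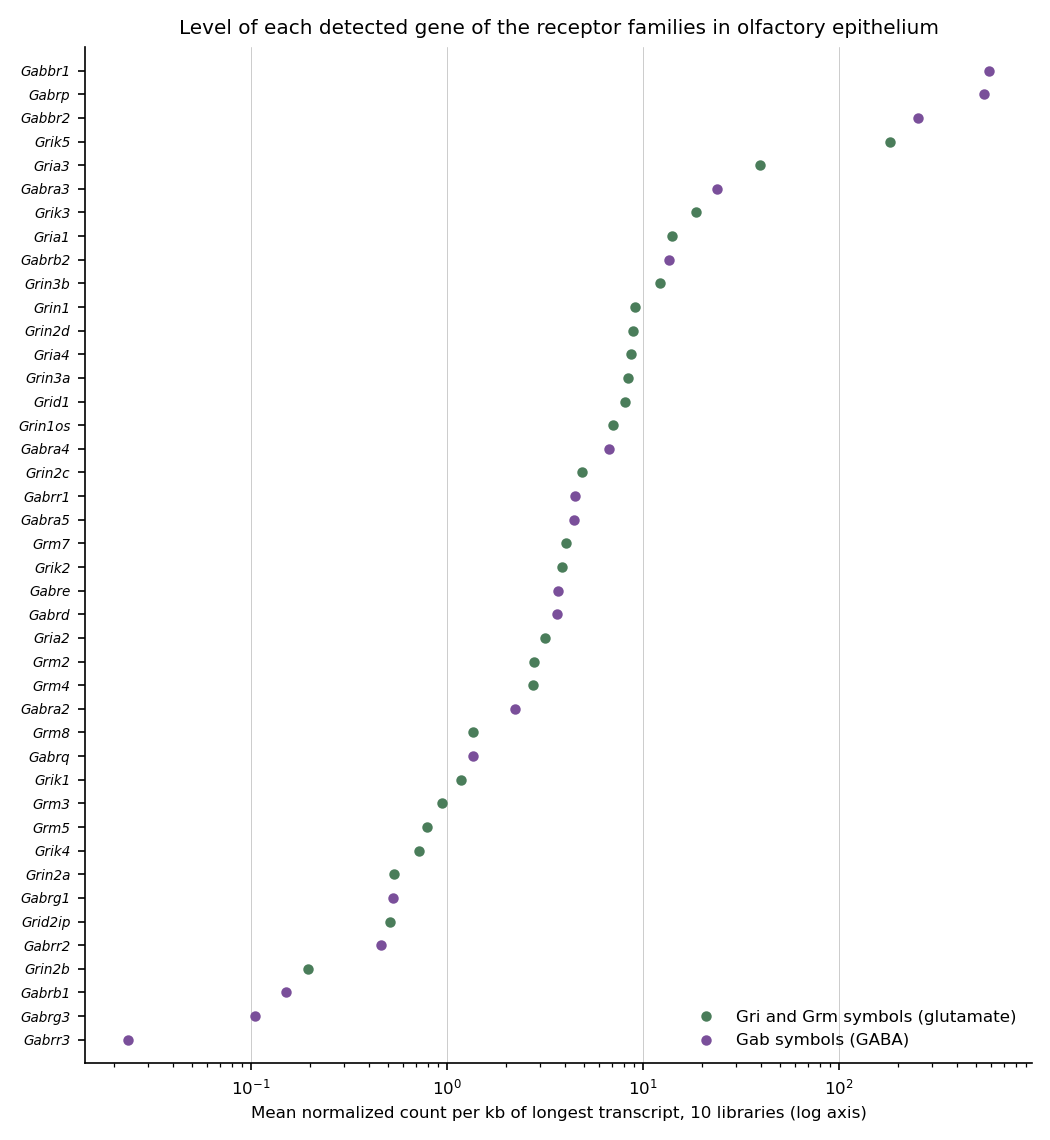
Mean normalized count per kilobase of the longest transcript (log axis) for 42 members with a mean above 0, ordered by level, with Gri and Grm symbols and Gab symbols in separate colours. Gabbr1, Gabrp, Gabbr2 and Grik5 lie between 181 and 584 per kb, and the next gene, Gria3, at 39.6 per kb.

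Within each role 1 or a few subunits led. Among AMPA subunits Gria3 stood at 39.6 per kb, Gria1 at 14.1, Gria4 at 8.70 and Gria2, the subunit that blocks calcium entry, at 3.18. The kainate subunits Grik3 and Grik2 reached 18.7 and 3.87 per kb, and Grik1 and Grik4 stood at 1.19 and 0.72. NMDA subunits were low and close in level, with Grin3b at 12.2, the obligatory Grin1 at 9.16, Grin2d at 8.96, Grin3a at 8.41 and Grin2c at 4.90 per kb. Lower still were Grin2a and Grin2b, the main partners of Grin1 in the forebrain, at 0.54 and 0.20 per kb. Grid1, a delta subunit that binds cerebellins, stood at 8.11 per kb.

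Metabotropic glutamate receptors were low throughout, led by Grm7 at 4.07 per kb, with Grm2 at 2.79 and Grm4 at 2.75. Grm8, Grm3 and Grm5 stood at 1.36, 0.95 and 0.80 per kb. Of GABA-A alpha subunits, Gabra3 led at 23.9 per kb, and Gabra4 stood at 6.76. The beta subunit Gabrb2 had 13.6 per kb and Gabrb1 0.15. The gamma subunits Gabrg1 and Gabrg3 stood at 0.53 and 0.10. Gabrr1 led the rho subunits at 4.50 per kb, above Gabrr2 at 0.46 and Gabrr3 at 0.024. The levels depend on the length used. With the median transcript length in place of the longest, 22 of the 42 levels in the plot were over 1.5 times higher, among them Grid1 at 56.2 per kb, Gria2 at 9.22 and Grin2b at 6.73, and the leading member was another one in 2 of 13 roles, the alpha and beta subunits of GABA-A receptors.

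Gabra6, the alpha subunit of cerebellar granule cells, and Grm6, the receptor of retinal bipolar cells, had a mean of 0 in the authors' deposited table. In about 175000000 assigned reads over the 10 libraries, a count of 0 allows up to 3 reads in all. Another 15 members were marked as low by the authors and given no adjusted p-value: Gabrd, Gabrq, Gabrb1, Gabrg1, Gabrg3, Gabrr2, Gabrr3, Grin2a, Grin2b, Grm3, Grm5, Grm8, Grik1, Grik4 and the scaffold protein gene. Grin1, Gria4 and Grm2 are among 4 members that passed that filter but have no p-value in the authors' deposited table, as do 57 genes with a mean above 10 in all.

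No member with an adjusted p-value passed the threshold between Apoe4 and Apoe3 in the authors' test. Of the 28 members with an adjusted p-value in the authors' deposited table, 0 were under 0.05, where 0.779% of 16050 genes were. At an unadjusted p under 0.05 the count was also 0 of 28 in the authors' deposited table (DESeq2 Wald test), against 10.3% of all genes tested. The folds are log2 fold changes that the authors' model shrank towards 0, which makes those of low genes small. Their direction is not named in the deposited data. It was read as Apoe4 over Apoe3 from the signs that single libraries gave, as described below. In the authors' deposited table the folds ran from -0.13 for Gabre to 0.19 for Gabra3 (the plot of fold changes).

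**Figure D2:**
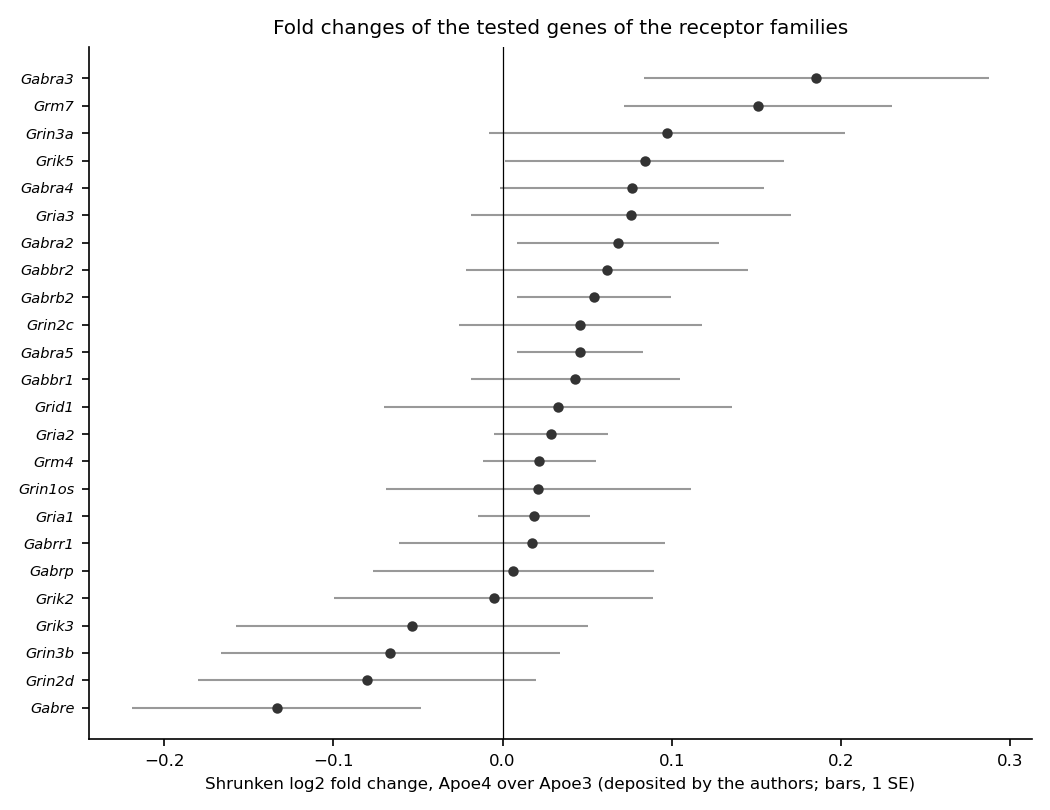
Shrunken log2 fold changes with 1 standard error, deposited by the authors and read as Apoe4 over Apoe3, for 24 members with an adjusted p-value. Members are ordered by fold. Points lie between -0.13 (Gabre) and 0.19 (Gabra3), 19 above and 5 below 0.

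Among the abundant subunits each interval included 0. Interval width on this shrunken scale does not rank genes by precision, since the scarce Grm4 had a narrower one, -0.04 to 0.09. The authors' deposited table put Gabbr1 at 0.04 ± 0.06 (SE; adjusted p = 0.859, DESeq2), which gives a 95% interval of -0.08 to 0.16. For Gabbr2 the authors' deposited table gave 0.06 ± 0.08 (SE; interval -0.10 to 0.22), and for Gabrp 0.01 ± 0.08 (SE; interval -0.16 to 0.17). Grik5 stood at 0.08 ± 0.08 (SE; interval -0.08 to 0.25) in the authors' deposited table. A missed threshold does not show that these genes were equal in both genotypes.

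Values closest to the threshold came from genes of lower mean. Grm7, a presynaptic glutamate receptor, had the smallest p of all members in the authors' deposited table, 0.0567 (adjusted p = 0.497, DESeq2), and a fold of 0.15 ± 0.08 (SE). Gabra3 followed with p = 0.0694 and a fold of 0.19 ± 0.10 (SE) in the authors' deposited table (adjusted p = 0.525, DESeq2). Gabre, the epsilon subunit, had p = 0.119 and a fold of -0.13 ± 0.09 (SE) in the authors' deposited table (adjusted p = 0.606, DESeq2). Gabra3 and Gabre are neighbours on the X chromosome. Xist, the RNA of the inactive X chromosome, had a mean of 5026 normalized counts and a log2 fold change of 6.41 in the authors' deposited table, with no p-value there. The genotypes thus differed greatly in Xist, and no sex is given for any sample. If sex differed between the groups, it cannot be told apart from genotype in any fold, X-linked or not. The part of sex in the values of these or any other members was not tested.

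The median log2 fold change of the 28 tested members was 0.03 in the authors' deposited table, with 22 positive and 6 negative folds, against a median of 0.0026 and 51.1% positive over all genes tested. A pair of measures moved with that lean and are given beside it. The members have longer transcripts than the rest (median 5.05 kb, against 3.35 kb), and with the trend of folds on transcript length subtracted their median was 0.0065. The median was 0.11 with approximate unshrunken folds and 0.06 over the 11 members with means of at least 50. Reads of many members were also concentrated in 1 Apoe4 library, described next. The part of either in the lean was not tested.

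Library Apoe4 A held a large share of the reads of many subunits. It has the largest size factor, 11.5% of the sum over libraries, which is taken here as its share of depth. Among the 31 recovered members with at least 10 reads it held between 4.55% (Grik4) and 69.2% (Grin2b) of a gene's reads, with a median of 32.8%. In 8 members the share was at least 50%, among them Grin2b, Grm2, Gabra5, Grm5, Grm4 and Gabrg1. Of 2258 genes with means of 1 to 8, 3.32% had such a share, and of the 12 members in that range 4 had. The lower bound of the exact binomial interval (95%) lay above the library's share of depth in 20 of the 31 members, and in 8 of the 12 with means of 1 to 8, against 12% of all genes in that range. The intervals cover counting error only.

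**Figure D3:**
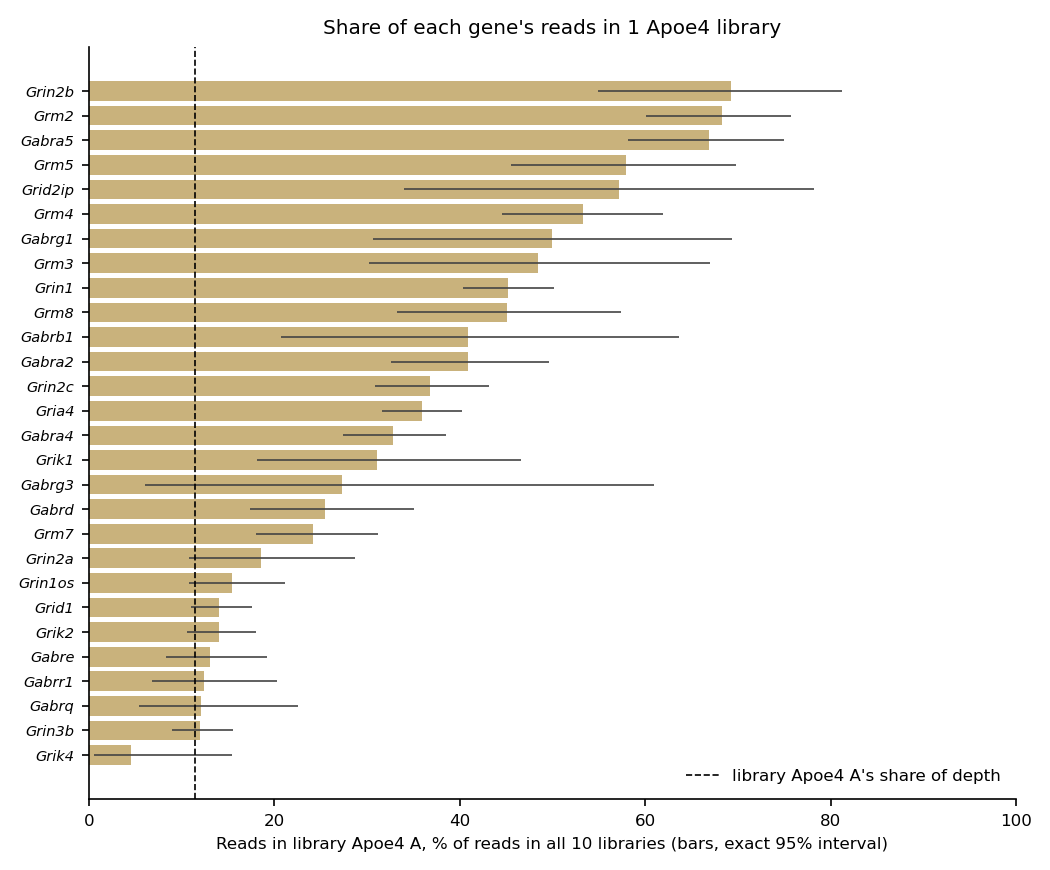
Share of each gene's reads in library Apoe4 A, in percent of its reads in all 10 libraries, for 28 members with at least 10 recovered reads. Lines are exact 95% binomial intervals. The dashed line is the library's share of depth by size factors, 11.5%. Shares run from 4.55% for Grik4 to 69.2% for Grin2b.

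NMDA subunits fell on both sides of this division. Grin1 had 18 to 189 reads in the 6 Apoe4 libraries, with a median of 25, and 51, 23, 19 and 17 reads in the 4 Apoe3 libraries. The 189 reads of Apoe4 A were 45.2% of the total (interval 40.4% to 50.1%), and the other Apoe4 libraries, at 18 to 31 reads, lay within the range of Apoe3. Divided by size factors, Grin1 averaged 47.6 ± 57.1 in Apoe4 (SD, n = 6) and 26.6 ± 12.1 in Apoe3 (SD, n = 4), and the Apoe4 mean without library A was 24.4. Grin1os lies within the bounds of Grin1 (chromosome 2, 25291177 to 25319187, GRCm38.p6), and strandedness is not given, so reads of the pair may be shared or dropped. Still, Grin1os had 9 to 34 reads in Apoe4 (median 19) and 19, 20, 14 and 25 in Apoe3, with 15.5% of its reads in Apoe4 A.

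Grin2b had 36 reads in Apoe4 A and 0 to 6 in the other 5 Apoe4 libraries, against 4, 0, 1 and 0 in Apoe3. Grin2c had 11 to 92 reads in Apoe4 (median 16.5) and 30, 13, 11 and 28 in Apoe3, again highest in Apoe4 A. By contrast, Grin3b, a subunit that lowers calcium entry, was spread over all libraries, with 20 to 61 reads in Apoe4 (median 38.5) and 58, 43, 43 and 31 in Apoe3. Grin2a too showed no such peak, with 3 to 15 reads in Apoe4 (median 9) and 8, 14, 3 and 3 in Apoe3. The groups overlapped in every one of these genes.

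The plot of reads by library shows 12 of these genes. Gria4, the only AMPA subunit recovered, had 33 to 179 reads in Apoe4 (median 40.5) and 63, 35, 15 and 14 in Apoe3. Its means divided by size factors were 58.9 ± 47.7 in Apoe4 (SD, n = 6) and 30.02 ± 18.4 in Apoe3 (SD, n = 4), and 39.7 in Apoe4 without library A. The kainate subunit Grik2 and the delta subunit Grid1 had no peak in Apoe4 A, though their reads varied between libraries. Grid1 had 33 to 74 reads in Apoe4 (median 41.5) and 41, 56, 47 and 35 in Apoe3. Grik2 had 23 to 51 in Apoe4 (median 39) and 36, 34, 17 and 57 in Apoe3. Of the scarce kainate subunits, Grik1 had 14 of its 45 reads in Apoe4 A and Grik4 had 2 of 44.

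**Figure D4:**
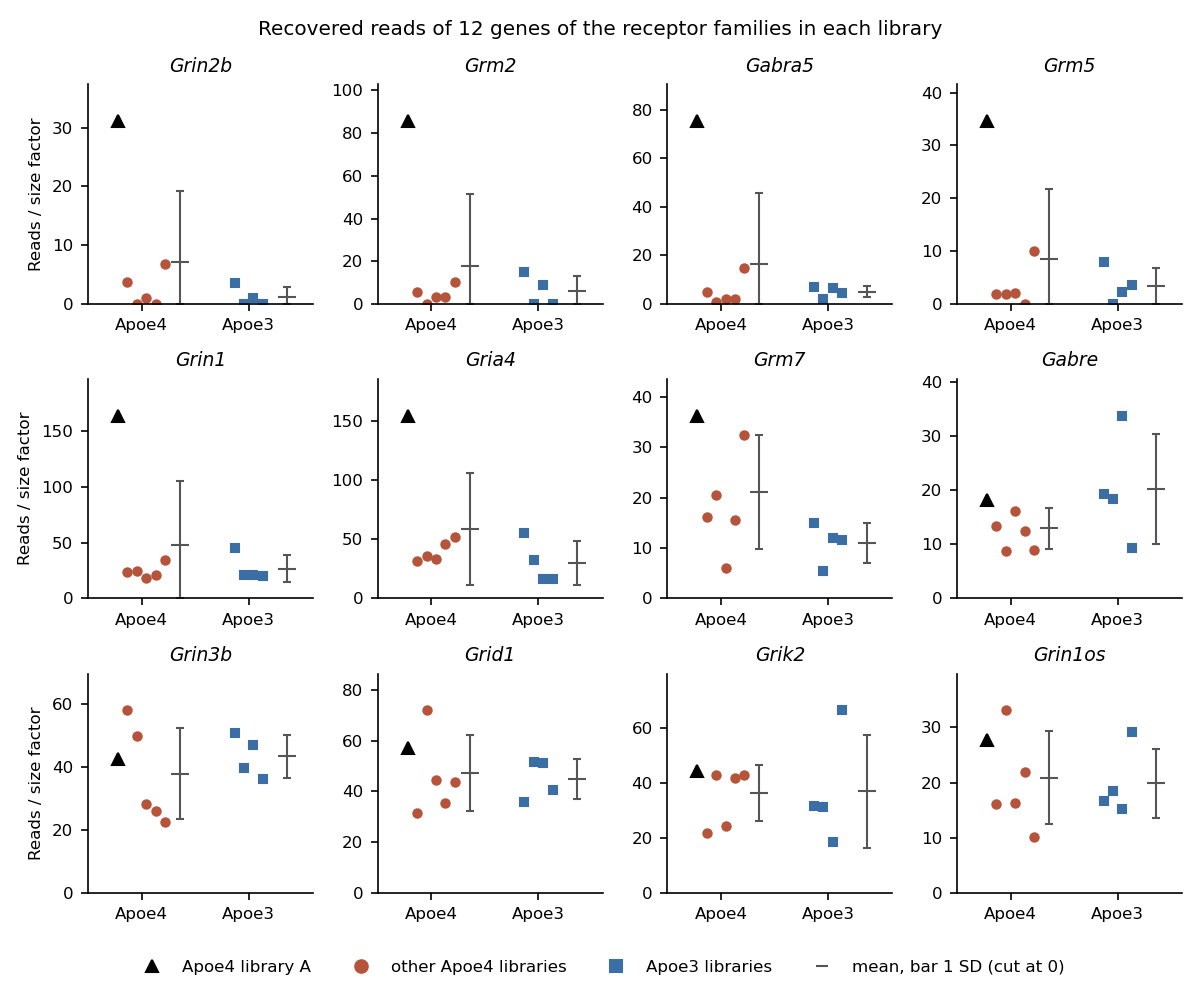
Reads divided by size factor in each library for 12 members (linear axes from 0), Apoe4 left and Apoe3 right of each panel; the triangle is library Apoe4 A, and bars give the mean with 1 SD, cut at 0. In Grin2b, Grm2, Gabra5, Grm5, Grin1 and Gria4 the triangle stands far above all other points, while in Gabre, Grin3b, Grid1, Grik2 and Grin1os it lies among them.

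The metabotropic receptors described here were highest in the same library after scaling. Grm2, a presynaptic autoreceptor, had 99 reads in Apoe4 A and 0 to 9 in the other Apoe4 libraries, against 17, 0, 8 and 0 in Apoe3. Grm5, coupled to calcium release, had 40 reads in Apoe4 A and 0 to 9 in the other Apoe4 libraries, against 9, 0, 2 and 3 in Apoe3. For Grm4 there were 72 reads in Apoe4 A and 0 to 14 in the other Apoe4 libraries, against 10, 7, 16 and 0 in Apoe3. By reads, the 5 other Apoe4 libraries lay within the Apoe3 range for each of these 3 genes. Grm8 had 0 to 32 reads in Apoe4 (median 7) and 6, 7, 0 and 0 in Apoe3, and Grm3 had 0 to 15 in Apoe4 (median 1) and 7, 0, 4 and 0 in Apoe3.

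Grm7 was less uneven, with 6 to 42 reads in Apoe4 (median 19) and 17, 6, 11 and 10 in Apoe3. It averaged 21.2 ± 11.3 normalized reads in Apoe4 (SD, n = 6) and 11.0 ± 3.94 in Apoe3 (SD, n = 4), and 18.2 in Apoe4 without library A. The log2 ratio of these means was 0.95 with all libraries and 0.72 without Apoe4 A, and the genotypes overlapped.

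Many GABA-A subunit genes lie in clusters, and the recovered reads are given by cluster. Whether clusters differed in how reads were spread was not tested. On chromosome 7, Gabra5 (57407669 to 57591016), a subunit of hippocampal and bulb neurons, had 87 reads in Apoe4 A and 1 to 13 in the others, against 8, 2, 6 and 4 in Apoe3. Its neighbour Gabrg3 had 11 reads in all, 3 of them in Apoe4 A.

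The chromosome 5 cluster (Gabrg1, Gabra2, Gabra4 and Gabrb1, 70751047 to 72149572) had between 32.8% and 50% of each gene's reads in Apoe4 A. Gabra2 had 1 to 56 reads in Apoe4 (median 10.5) and 14, 7, 5 and 10 in Apoe3. Gabra4 had 11 to 95 reads in Apoe4 (median 22) and 26, 33, 24 and 9 in Apoe3. Gabrg1 was found in 3 libraries only, with 14 and 4 reads in Apoe4 A and F and 10 in Apoe3 A. Gabrb1 had 0 to 9 reads in Apoe4 and 3, 0, 1 and 0 in Apoe3. The annotated bounds of Gabra4 and Gabrb1 overlap, and reads there may have been dropped.

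Gabre and Gabrq, the recovered genes of the X-linked cluster, had no peak in Apoe4 A. Gabre had 8 to 21 reads in Apoe4 (median 13) and 22, 20, 31 and 8 in Apoe3, or 13.0 ± 3.78 normalized reads in Apoe4 (SD, n = 6) and 20.2 ± 10.1 in Apoe3 (SD, n = 4), with 3 of 4 Apoe3 libraries above every Apoe4 library after scaling. Gabrq, the theta subunit, had 3 to 10 reads in Apoe4 (median 6.5) and 8, 5, 7 and 9 in Apoe3. The share of Apoe4 A was 13.0% for Gabre and 12.1% for Gabrq. Gabrd, a subunit of extrasynaptic receptors on chromosome 4, had 8 to 26 reads in Apoe4 (median 9.5) and 9, 10, 5 and 6 in Apoe3. The retinal rho subunit Gabrr1 had 6 to 17 reads in Apoe4 (median 10.5) and 8, 17, 10 and 5 in Apoe3, while Gabrr2 and Gabrr3 had 9 reads and 1 read in all.

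Summed over the 33 recovered members, Apoe4 A had 1395 normalized reads, the other Apoe4 libraries 310 to 489 and the Apoe3 libraries 354 to 542. The excess was not limited to the 8 genes above: the other recovered members summed to 959 in Apoe4 A, 294 to 422 in the other Apoe4 libraries and 343 to 453 in Apoe3. Leaving out Apoe4 A changed the direction of many comparisons. With all libraries, 26 of 31 members had a higher mean in Apoe4, at a median log2 ratio of 0.48. Without Apoe4 A, 12 of 31 did, at a median of -0.08. In none of the 31 were the genotypes free of overlap with all libraries (0 without Apoe4 A), against 1.15% of genes with means of 1 to 8.

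**Figure D5:**
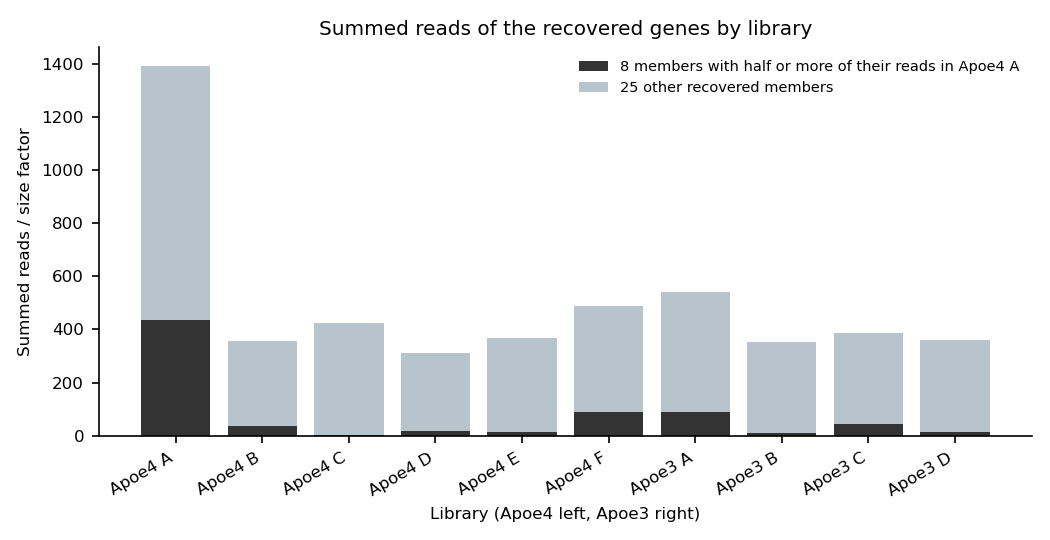
Reads divided by size factor summed over the 33 recovered members in each library, Apoe4 left and Apoe3 right, split into the 8 genes with at least 50% of their reads in Apoe4 A (dark) and the 25 others (light). Apoe4 A reaches 1395 and no other library passes 542.

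Reads were not recovered for the other members, but their dispersions, solved from the deposited mean, fold and standard error, show which vary most. Among 1986 tested genes with means of 10 to 100 and 1 solution, the median dispersion was 0.120 and the 95th percentile 0.388. Of 21 members in that range, 10 lay above that percentile. They included Gria1 at 1.97, Gria2 at 1.89 and Gabrb2 at 0.99, whose reads per library are unknown, beside Grm2 at 3.34 and Gabra5 at 1.46. Which libraries hold the reads of Gria1, Gria2 and Gabrb2 was not determined.

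Some markers of brain cells were high in library Apoe4 A. Of 10 listed astrocyte and oligodendrocyte genes none had a mean of 0, and 2 had at least 10 recovered reads. These were the myelin genes Mog, with 16 of 21 reads in Apoe4 A, and Mobp, with 35 of 52. Opalin, also recovered, had 0 of its 3 reads in Apoe4 A. Reads per library are unknown for Aqp4, Slc1a2 and Gja1, the genes of highest mean in this list, at 9879, 3215 and 2598. Mog and Mobp together summed to 44.1 normalized reads in Apoe4 A, 0 to 10.1 in the other Apoe4 libraries and 2.33 to 3.50 in Apoe3. Slc32a1, the vesicular GABA transporter of inhibitory neurons, had 189 of its 277 reads there. With Slc32a1 and 3 other markers of bulb and brain neurons recovered of 18 listed (none at 0), the sum was 224 in Apoe4 A, 28.3 to 52.7 in the other Apoe4 libraries and 24.4 to 85.9 in Apoe3. Slc32a1 alone made up 164 of the 224, and Apoe4 A was the highest library in 2 of these 4 markers. Tbx21, of mitral cells, had 33 of 88 reads in Apoe4 A, but Tbr1, also of bulb projection neurons, had 32 of 253, and Neurod6, of forebrain excitatory neurons, had 5 of 40. Markers of other cells passed the threshold in some lists. Of 8 sustentacular (supporting) cell genes, 2 were lower in Apoe4 in the authors' deposited table, as 0.455% of all genes tested were, and 2 of 11 gland genes were higher, as 0.324% were. Of 12 markers of immature olfactory neurons and precursors, 1 was higher in the authors' deposited table (Dpysl3, adjusted p = 0.0272, DESeq2), and of 14 of mature olfactory neurons 0 passed, with 1 at an unadjusted p under 0.05. The part of any of these cells in the receptor values was not tested.

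Other gene groups of transmitter signalling give a frame for these values. Of 51 genes for receptor scaffolds and auxiliary proteins, 41 were tested and 2 changed in the authors' deposited table. Of these, 1 was higher in Apoe4, as 0.324% of all genes tested were, and 1 lower, as 0.455% were. Their median log2 fold change over the 41 was 0.05. Cacng7, an AMPA receptor auxiliary protein, rose in Apoe4 by 0.44 ± 0.10 (SE) on the log2 scale in the authors' deposited table (adjusted p = 0.00442, DESeq2). Shisa7, a partner of AMPA and GABA-A receptors, fell by 0.43 on that scale (SE 0.09, the authors' deposited table; adjusted p = 0.000583, DESeq2). Both lie on chromosome 7 (Cacng7 at 3332027 to 3368221, Shisa7 at 4825551 to 4844866), as does Apoe (19696244 to 19701310). The part of their position was not tested. In 15 of the 17 auxiliary genes with at least 10 recovered reads, Apoe4 A was the highest library after scaling, among them Cacng5 with 161 of 245 reads and Shisa9 with 156 of 301. Apoe4 A was the highest in 14.5% of all genes with means of 1 to 8. In 4 of the 17 its share was at least 50%.

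Of 26 genes for the synthesis, transport and breakdown of glutamate and GABA, 18 were tested and 0 passed the threshold in the authors' deposited table, with 2 at an unadjusted p under 0.05 (DESeq2) and a median log2 fold change of 0.08. Those 2 were Slc38a1, a glutamine transporter, at 0.25 ± 0.10 (SE), and Glul, glutamine synthetase, at 0.11 ± 0.05 (SE), in the authors' deposited table. Another 4 of the 26, among them Slc32a1, had a mean above the filter but no p-value. Of 30 glycine, nicotinic, serotonin and purinergic channel genes, 17 were tested and 0 changed in the authors' deposited table, with 1 at an unadjusted p under 0.05 (DESeq2), P2rx2 at -0.22 ± 0.09 (SE). The 17 of these channels with at least 10 recovered reads summed to 258 to 325 normalized reads in Apoe4 and 254 to 286 in Apoe3. Apoe4 A was the highest library after scaling in 4 of the 17, and its share was at least 50% in 0 of them.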

How the data were processed

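RNA of olfactory epithelium from 6 Apoe4 and 4 Apoe3 biological replicates was sequenced as poly(A)-selected paired-end libraries, per the labels' protocols. The authors used STAR, featureCounts, DESeq2 and the build GRCm38, per the submitters' processing notes, and their versions, strand setting and gene models are not given in those notes. The authors deposited 1 results table. Its mean is a signal, the count divided by a size factor and averaged over libraries by the authors. The deposited log2 fold changes and log2 standard errors were shrunk by the authors' model, the deposited score is the Wald statistic, and the deposited p-values and adjusted p-values are the authors'. A count test had been planned if values per library were deposited; they were not, so single genes keep the authors' test at an adjusted p under 0.05.

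Reads per library were solved from the deposited means. Where a single read makes up a gene's total, the mean depends on its library's size factor alone, and the sign of the fold gives its group. Here 6 levels had positive and 4 negative folds, as the labels have 6 Apoe4 and 4 Apoe3 samples. Positive folds were therefore read as higher in Apoe4, a direction that the deposited data do not name. Means below 8 had exactly 1 whole-number solution in 4455 of 4482 genes. For 3938 of these with 2 or more reads, a refit of the authors' model gave the deposited fold within 1e-06 in 99.7%. Members with means up to 50 were searched with the fold as a second condition, with at most 0.036 chance matches expected for any gene accepted. That search started from an even split over libraries and from splits with a large share in Apoe4 A. It did not start from a large share in any other library, so genes concentrated elsewhere were less likely to be recovered. The chance figure covers only the candidates searched. Means below 8 were solved without such starting points. Of 52 members and listed genes searched so, 48 were recovered. Recovered reads are described and not tested. Depth, about 14900000 to 20100000 assigned reads, was estimated as each size factor times the sum of all deposited means. Shares carry exact binomial intervals (95%). Lengths came from GENCODE vM21 (longest transcript, 96.6% of tested genes), positions and promoters from RefSeq GRCm38.p6. Python 3.11 and statsmodels were used, with a lowess fraction of 0.3 for the length trend.

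Members, gene lists and tests were chosen with earlier results of these data known. The rule for naming took members with a p under 0.05, the 2 of highest mean in each role, the highest and lowest fold and those without a p; of pathway lists, genes past the threshold or up to 4 of smallest p. Other members are given to account for all. Grm7, Slc32a1, Cacng5, Shisa9, Mog, Mobp, Opalin, Tbx21, Tbr1, Neurod6, Dpysl3 and Xist were named after their values were seen. So were members described for their reads in Apoe4 A, Grin2b and Gabra5 among them. Values of 5 members that this rule would name are not reported here.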

Additional observations from a re-analysis of the deposited data

Results flagged for a closer look

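In each genotype the highest and lowest library of 28 recovered members with at least 10 reads was compared with its nearest neighbour, 56 groups in all. A library stood apart from its group, by Dixon's criterion at 95%, in 17 of them. Chance gives about 1 in 20 groups for normally distributed values; for low counts with many zeros, as in Gabrg1 and Gabrg3, that rate need not hold. Of the 17, 14 were library Apoe4 A. There the normalized reads were 164 for Grin1, 155 for Gria4, 85.6 for Grm2, 82.2 for Gabra4, 79.6 for Grin2c, 75.3 for Gabra5, 62.3 for Grm4, 48.4 for Gabra2, 34.6 for Grm5, 31.1 for Grin2b, 27.7 for Grm8, 22.5 for Gabrd, 13.0 for Grm3 and 12.1 for Gabrg1.

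The other 3 were library Apoe3 A, which had 44.7 normalized reads of Grin1, 8.76 of Gabrg1 and 2.63 of Gabrg3. The nearest other Apoe3 library had 21.2 for Grin1 and 0 for both Gabrg1 and Gabrg3. The genes share a library and are not independent of each other.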

How the results depend on the processing

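The count of members past an adjusted p of 0.05 was 0 with no filter on low means, at means of at least 50, without X and Y genes, with Benjamini-Yekutieli adjustment, with the length trend removed and without the 2 members that are no subunit; at an unadjusted p under 0.05 it was 0 in each as well. The smallest adjusted p of a member over the Benjamini-Hochberg alternatives ran from 0.492 to 0.712. Of the 5 alternatives for 16 named members, 4 leave the Wald statistic as it is and change the adjusted p alone, and no call changed. With the length trend removed, which can turn a direction, the statistic became negative in 2 of 16, Gria1 (-0.050) and Grid1 (-0.32). The median fold was 0.11 with approximate unshrunken folds, where the lower of 2 possible dispersions was taken. Leaving out 1 library at a time, between 12 and 27 of 31 recovered members had a higher mean in Apoe4; the 12 came without Apoe4 A, and the ratio changed sign in 18 members. No paired analysis was possible because the deposited table holds no values per numbered replicate. Leaving out a replicate in the authors' test was not run for the same reason. Depth limits the scarcest genes: a share from 11 reads, as for Gabrg3, has an interval of 6.02% to 61.0%.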
